A study of Mus musculus with 37 samples.

Results

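Proteobacteria in mouse stool were described from 16S rRNA gene reads, and the members were all rows of the deposited taxonomy with the phylum Proteobacteria and without mitochondria in any rank. These were 273 of the 6100 sequence variants in the table, where a sequence variant is 1 row of the count table, named in the files by an identifier without its bases. The study sequenced the V3–V4 region from stool DNA of adolescent C57Bl/6 mice in 37 libraries. Dams of the prenatal alcohol exposure (PAE) groups drank 10% ethanol for the first 10 days of pregnancy and water afterwards. Dams of the control groups drank water throughout. The groups were control males (n = 11), PAE males (n = 10), control females (n = 7) and PAE females (n = 9). All offspring shared the strain, and the animals themselves carried no further treatment in the labels. The labels name no dam, litter or cage, so p-values measure the spread between these libraries, and littermates or cage mates may share bacteria. Libraries are called by group and by the number in their name, which runs from 1 to 37.

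Proteobacteria are Gram-negative bacteria with an outer membrane of lipopolysaccharide, and in a healthy mouse colon they are usually a minor phylum beside Bacteroidota and Firmicutes. Parasutterella, of the order Burkholderiales, is an asaccharolytic anaerobe that lives in the mammalian gut as a core member of low share. Rhodospirillales are Alphaproteobacteria, and the stool members of this order have few cultured relatives and often lack a genus name. Escherichia-Shigella is a facultative anaerobe of the Enterobacterales. Genera such as Burkholderia and Sphingomonas live in water and soil and are known from extraction reagents, so they are described apart. Reads give shares of a library, so more DNA of 1 taxon and less DNA of the others cannot be told apart.

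The members held 322246 reads, which was 2.00% of all reads kept. They fell into 112 variants of Alphaproteobacteria and 161 of Gammaproteobacteria, in 31 orders and 88 genera, counting a group without a genus name as 1 genus. Parasutterella and the unnamed Rhodospirillales together held 98.1% of the member reads. With Escherichia-Shigella added the share was 98.8%. Most members were rare, with 207 variants seen in 1 library and 2 seen in every library. The filter for testing, at least 5 reads in at least 7 libraries, passed 16 variants, 11 genera and 8 orders. The 257 variants under it held 6646 reads. Between 102655 and 1813222 reads per library were kept, and the group medians were 438413 reads in control males, 235447 in PAE males, 228790 in control females and 396148 in PAE females. No read of a taxon in a library allows a share of up to 0.000165% at the largest depth and 0.00292% at the smallest (3 reads). Intervals and such limits cover counting error only.

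Across the phylum, Proteobacteria held between 0.0671% of reads in PAE female 26 (95% Wilson interval 0.0594% to 0.0758%) and 9.24% in PAE male 24 (9.07% to 9.42%). Control males held 1.23% ± 0.644 (SD, n = 11), with a lowest value of 0.325%, a median of 1.08% and a highest of 2.17%. PAE males held 3.95% ± 3.71 (SD, n = 10), with 0.507%, 2.14% and 9.24%. The PAE males lay in 2 ranges, since numbers 16 to 19 and 25 held 0.507% to 1.29%, inside the range of the control males, and numbers 20 to 24 held 2.997%, 7.49%, 8.97%, 6.75% and 9.24%, above all control males. In males, the log2 fold change from edgeR's quasi-likelihood test was 1.65 (SE 0.62), and it did not pass (adjusted p = 0.0807 over 15 phyla, of which 1 phylum or 6.67% was called). A permutation test on the shares gave p = 0.0387, or 0.240 adjusted over 16 such tests. Without PAE males 20 to 24 the log2 fold change was -0.63 (edgeR adjusted p = 0.787). With PAE libraries 20 to 29 alone it was 2.17 and passed (0.0321), and adjusted p over the 16 alternatives ran from 0.0321 to 0.957.

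Control females held 1.71% ± 1.32 Proteobacteria (SD, n = 7), with a lowest value of 0.498%, a median of 1.12% and a highest of 4.11%. PAE females held 1.37% ± 2.16 (SD, n = 9), with 0.0671%, 0.319% and 5.98%. PAE females 27 and 28 held 4.18% and 5.98%, both above all control females, and the other 7 lay at or below 0.614%. The groups overlapped, and the log2 fold change was -0.30 (SE 0.70, edgeR adjusted p = 0.928, with 1 of 15 phyla or 6.67% called). With PAE females 11 to 15 as the exposed group it was -2.04 and passed (adjusted p = 0.0212, in a range of 0.0212 to 1 over 16 alternatives). The difference between the 2 sexes in the effect of exposure was 1.95 (SE 0.93, edgeR adjusted p = 0.204, with 0 of 15 phyla or 0% called, unadjusted p = 0.0419). Without PAE female 28 that difference was 2.995 and passed (0.0349). Males and females differed by -0.49 within controls (0.941) and by 1.46 within PAE (0.122, or 0.0111 and 2.53 without PAE female 28).

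The highest Proteobacteria shares lay in the libraries with the fewest sequence variants of all phyla. After rarefying each library to 102655 reads, 9 libraries had 190 to 284 observed variants and the other 28 had 367 to 664. These 9, set apart after the values were seen, were control females 3 and 10, PAE males 20 to 24 and PAE females 27 and 28. They held 2.96% to 9.24% Proteobacteria, with a median of 5.98%, and the other 28 held 0.0671% to 2.17%, with a median of 0.762%. The ranges did not overlap, although the 9 came from 3 of the 4 groups. Other phyla were not compared on this split, so the separation is not shown to be particular to Proteobacteria. Parasutterella held 1.06% to 3.77% in the 9 and 0.0172% to 1.56% in the 28. Unclassified Rhodospirillales held 1.67% to 7.27% and 0.00231% to 2.08%. The number of Proteobacteria variants overlapped between them, at 11 to 22 with a median of 17 in the 9 and 9 to 26 with a median of 14.5 in the 28, after rarefying. Without the 9 libraries the phylum's log2 fold change was -0.62 in males (edgeR adjusted p = 0.601) and -1.60 in females (0.0496). Since the 9 also held the highest Proteobacteria shares, these are a description of the other 28 libraries, and the female value was set in part by that choice. The part of low variant number in the result was not tested.

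**Figure D1:**
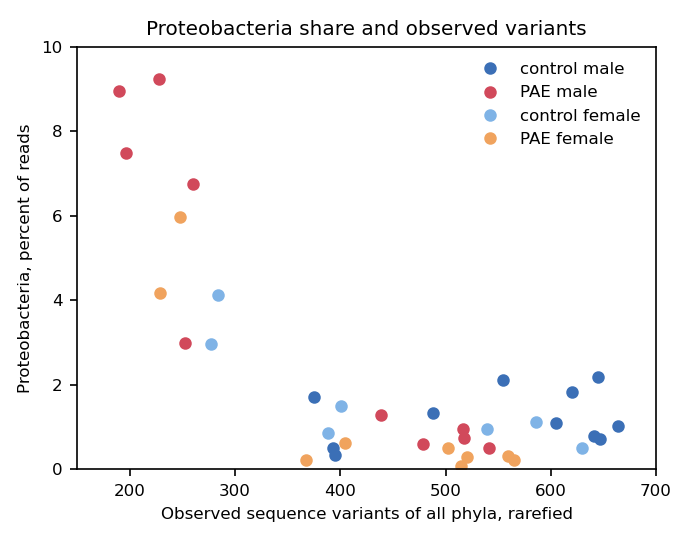
Each point is 1 library, with observed sequence variants of all phyla after rarefying on the x axis and the Proteobacteria percent of reads on the y axis, coloured by group. The 9 points under 300 variants lie at 2.96% or more, and the 28 others at 2.17% or less.

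Of the genera, Parasutterella was found in all 37 libraries. It held 0.301% ± 0.433 of reads in control males (SD, n = 11), with a lowest value of 0.0207%, a median of 0.145% and a highest of 1.56%. In PAE males it held 1.12% ± 1.26 (SD, n = 10), with 0.0172%, 0.727% and 3.77%. PAE males 20 to 24 held 1.51%, 2.33%, 1.23%, 3.77% and 1.81%, and the other 5 PAE males 0.0172% to 0.221%, so the high values were again those of 5 libraries and the groups overlapped. Its log2 fold change was 2.43 (SE 1.05, edgeR adjusted p = 0.127). Control male 31, at 1.56%, stood above the other control males, of which the next held 0.446%, and without it the log2 fold change was 3.44 and passed (0.0291). Without PAE males 20 to 24 it was -1.62 (0.921), and adjusted p over 16 alternatives ran from 0.0488 to 0.921.

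In females Parasutterella held 0.633% ± 0.588 of reads in controls (SD, n = 7), with 0.0656%, a median of 0.303% and a highest of 1.45%. In PAE females it held 0.578% ± 1.04 (SD, n = 9), with 0.0320%, 0.134% and 3.05%. The 2 highest PAE females were 27 at 1.51% and 28 at 3.05%, and the other 7 lay between 0.0320% and 0.171%. Its log2 fold change was 0.40 (SE 1.17, edgeR adjusted p = 0.960), and its sign turned under 9 of 16 alternatives, none of which passed. The difference between the sexes in the effect of exposure was 2.03 (SE 1.54, adjusted p = 0.542).

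Parasutterella was made of a small set of variants. Variant A (identifier starting fc7bca7e) held 93899 of the 117724 reads of the genus and occurred in all 37 libraries. Variant B (c6b09e36) held 19477 reads in 27 libraries. Where both occurred, variant B had a median of 35.7 reads per 100 reads of variant A (18.4 to 43.7, SD 6.87, 27 libraries), over a range of variant A from 59 to 31148 reads. The libraries with variant B were 27 of the 29 numbered 1 to 29, in both exposure groups. The 2 without it there were PAE female 12 and PAE male 16, which had 65 and 90 reads of variant A. None of the 8 control libraries numbered 30 to 37 held a read of variant B, against 23749 reads of variant A in them together. Variant B thus accompanied variant A in numbers 1 to 29 and had no read in numbers 30 to 37. The labels name no batch for these numbers.

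**Figure D2:**
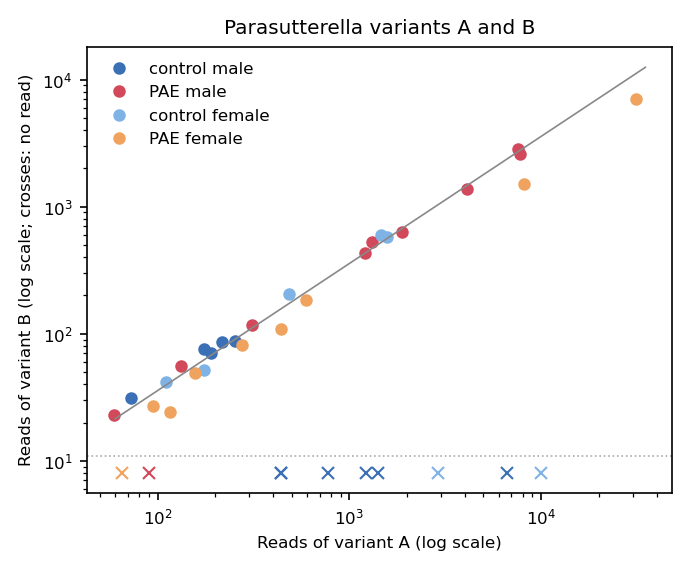
Reads of Parasutterella variant A (x axis, log scale) and variant B (y axis, log scale) are plotted for each library by group, with a line at the median of 35.7 reads of B per 100 of A. Crosses under the dotted line are the 10 libraries with no read of B, 8 of which are controls numbered 30 to 37 with up to 9950 reads of variant A.

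Variants C (7509a10f) and D (4f1d8841) of Parasutterella showed the opposite distribution. Variant C had 1364 reads and variant D 1045, all in controls 30 to 37 and in each of those 8 libraries. Variant C held 0.0100% to 0.0297% of reads in control males 31 to 33 and 35 to 37, 0.00231% in control female 30 and 0.0372% in control female 34. Control libraries 1 to 10 and all PAE libraries had no read of either, so 10 of the 18 controls were at 0 like the PAE libraries. Both passed the filter through these 8 controls alone, so that a lower level with exposure was set by that block of numbers and is given as a description. In males the log2 fold changes were -8.51 for variant C (SE 2.17, edgeR adjusted p = 0.00751) and -8.14 for variant D (SE 2.09, 0.00751). Means were 0.0101% ± 0.0111 and 0.00923% ± 0.0145 in control males (SD, n = 11) against 0 reads in 10 PAE males, so variant C was at least 112-fold and variant D at least 102-fold lower, against 3 reads over the group. In females the log2 fold changes were -8.05 for variant C (SE 2.18, 0.0208) and -7.42 for variant D (SE 2.06, 0.0212), at least 82.3-fold and 53.4-fold lower. Both female calls rested on control female 34, and without it the log2 fold changes were -4.26 (0.0914) and -4.68 (0.0807). In males variant C did not pass by limma (-3.05, 0.132) or without PAE males 20 to 24 (-8.51, 0.159), and its adjusted p over 12 alternatives ran from 2.78e-19 to 0.196. With controls 1 to 10 alone neither variant could be fitted, since it had no read. Variant E (32cb5982) occurred in controls 30 to 33 alone, with 448 reads in control male 33, and did not pass the filter. In that library variant A was 21.5% of the genus, the lowest share among the libraries.

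Variants A and B themselves did not pass edgeR's test in either sex. Variant A held 0.246% ± 0.429 in control males (SD, n = 11) and 0.825% ± 0.915 in PAE males (SD, n = 10, log2 fold change 2.05, edgeR adjusted p = 0.253), and DESeq2 called it higher in males (2.71, 0.0297). Variant B held 0.0129% ± 0.0172 and 0.296% ± 0.340 (log2 fold change 4.75, SE 1.75, 0.0719), and in 7 of 10 PAE males it lay above all 11 control males. That comparison held 6 control males of numbers 31 to 37, which had no read of it. In males variant B passed with TMMwsp scaling (6.31, 0.0163), with DESeq2 (5.48, 0.00168) and with limma on centred log-ratios (6.53, 0.0125). It also passed with controls 30 to 37 alone (13.05, 0.000789) and with PAE libraries 20 to 29 alone (4.84, 0.0495). It did not pass with controls 1 to 10 alone, the only controls that held reads of it. Nor did it pass without PAE libraries 20 to 24, without the libraries with few variants, with depth as a covariate or with the male groups alone.

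The unnamed Rhodospirillales were the larger genus group, with 198462 reads in 49 variants and in all 37 libraries. No member of the order had a name at the genus rank, so order and genus values of the shares are the same. The species label of 7 variants was Azospirillum sp. Control males held 0.886% ± 0.740 of reads (SD, n = 11), with a lowest value of 0.0335%, a median of 0.783% and a highest of 2.08%. PAE males held 2.77% ± 2.77 (SD, n = 10), with 0.259%, 1.39% and 7.27%. PAE males 20, 21, 23 and 24 held 5.96%, 6.61%, 2.90% and 7.27%, above all control males, and the other 6 held 0.259% to 1.67%. In males the log2 fold change was 2.05 (SE 0.92) at the order rank and did not pass (edgeR adjusted p = 0.268). At the genus rank it was 2.54 (SE 0.98) and did not pass (edgeR adjusted p = 0.0893). It passed without control male 7, PAE male 16, 18 or 19, or PAE female 26 (0.0441 to 0.0497) and with the male groups alone (2.64, 0.0349). Without PAE males 20 to 24 it was -0.49 (0.921), and adjusted p over 16 alternatives ran from 0.0349 to 0.995.

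In females the unnamed Rhodospirillales held 1.03% ± 0.979 in controls (SD, n = 7), with 0.00231%, a median of 0.834% and a highest of 2.82%. In PAE females they held 0.740% ± 1.16 (SD, n = 9), with 0.00524%, 0.181% and 2.91%. PAE females 27 and 28 held 2.63% and 2.91%, and the other 7 held 0.390% or less. The log2 fold change was -0.13 at the order rank (SE 1.03, edgeR adjusted p = 0.980). At the genus rank it was 0.12 (SE 1.09, edgeR adjusted p = 0.970), and its sign turned under 10 of 16 alternatives without a call. The male and female effects differed by 2.42 (SE 1.44, 0.542).

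Within a library the 2 main genera were unequal. Parasutterella was the larger in 9 of 37 libraries, and its part of the reads of both ran from 0.985% in control male 5 to 99.8% in control female 30, with a median of 26.004%. It was 92.5%, 92.2% and 88.6% in control males 31, 32 and 33, against 8.97% to 26.004% in control males 35 to 37. Of the 9 libraries with few variants it was the larger in PAE male 23 (56.6%) and PAE female 28 (51.2%). Group medians were 20.6% in control males, 22.9% in PAE males, 37.01% in control females and 48.7% in PAE females.

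The leading variant of the unnamed Rhodospirillales changed from library to library. The 5 variants of most reads, A (identifier ending 0f72af6c), B (starting 35e2895a), C (57e1f8e9), D (43f62e43) and E (ending b4a260d6), held 97.7% of the order's reads. They were found in 31, 23, 21, 16 and 15 libraries. At 5 reads or more, variants A and C were together in 19 libraries, A and B in 18, and C and E in 14. The leading variant held 29.8% to 100% of the order in its library. Variant C led in 11 libraries, variant A in 10, variant B in 8, variant D in 5 and variant E in 3. Control males 31, 32 and 33 held variant B and no other Rhodospirillales, and control female 34 and control males 35 to 37 were led by variant D at 71.8% to 96.2%. Controls 1 to 10 were led by variant C in 8 libraries, by variant A in control female 3 and by variant D in control male 1. The PAE libraries were led by variants A (8 libraries), B (5), C (3) and E (3), and in no PAE library by variant D.

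**Figure D3:**
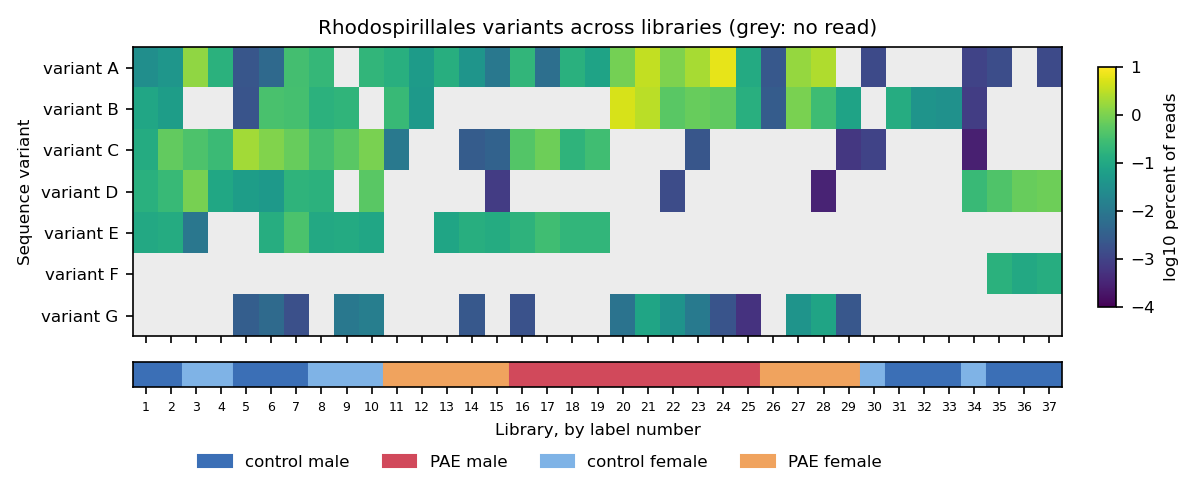
Rows are Rhodospirillales variants A to G and columns the 37 libraries by label number, with the group in the strip underneath; colour gives log10 of the percent of reads and grey marks no read. Variant D fills controls 1 to 8, 10 and 34 to 37 and is at 4 reads or fewer in PAE libraries, variant E lies in libraries numbered 1 to 19, and variant A reaches its highest share, 6.65%, in PAE male 24.

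Rhodospirillales variant A was called higher in PAE males than in control males. It held 0.0372% ± 0.0971 in control males (SD, n = 11), with 4 libraries at no read, a median of 0.00152% and a highest value of 0.327%. In PAE males it held 1.48% ± 2.13 (SD, n = 10), from 0.00667% through a median of 0.540% to 6.65%. All 10 PAE males lay above the median of the control males, and numbers 20 to 24, at 0.884%, 3.43%, 1.10%, 2.18% and 6.65%, lay above all of them. In all 9 libraries with few variants, control females 3 and 10 among them, variant A held 0.197% to 6.65%, with a median of 1.62%. In the other 28 libraries its median was 0.00828% and its highest share 0.327%. The part of low variant number in this call was not tested. The ratio of mean shares was 39.7 and the log2 fold change 5.41 (SE 1.77, edgeR adjusted p = 0.0325). Without PAE males 20 to 24 the log2 fold change was 1.64 and did not pass (0.9996), and with controls 1 to 10 alone it was 4.30 (0.358). The call was also lost without any 1 of control males 1, 2, 6, 35, 36 and 37 or PAE males 21 and 24 (up to 0.0787), and over 15 alternatives adjusted p ran from 0.000172 to 0.9996. In females variant A held 0.288% ± 0.521 in controls (SD, n = 7) and 0.506% ± 0.924 in PAE females (SD, n = 9). There its log2 fold change was 0.54 (SE 1.74, edgeR adjusted p = 0.987). The difference between the sexes was 4.86 (SE 2.35, 0.371).

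Rhodospirillales variant D was called lower with exposure in both sexes, after passing the filter through control libraries alone. A lower level with exposure was therefore set in part by the filter and is given as a description. Control males held 0.232% ± 0.278 (SD, n = 11), with no read in numbers 31 to 33, a median of 0.146% and a highest value of 0.789% in control male 37. Among 10 PAE males there were 3 reads in all, in PAE male 22. Their log2 fold change was -10.51 (SE 2.22, edgeR adjusted p = 0.00315), and the mean of control males was 2563 times the pooled share of PAE males, with a counting interval of 877 to 12430. Control females held 0.281% ± 0.342 (SD, n = 7), with a lowest value of 0, a median of 0.162% and a highest of 0.944%. PAE females held 8 reads in all, 4 each in 15 and 28. Here it was -11.36 (SE 2.40, 0.0137), a ratio of mean shares of 2339. The groups overlapped at no read, since 3 control males and 2 control females had none. Fits that left out libraries kept the same filter and do not make the calls independent of it. The variant's calls held in all 37 fits that left out 1 library in each sex, with adjusted p of up to 0.00527 in males and 0.0266 in females. They also held with controls 1 to 10 alone (0.00491 and 0.000949), and with controls 30 to 37 alone the variant had too few libraries for the filter and was not tested. They were lost in males without PAE males 20 to 24 (-13.16, 0.0759), without the 9 libraries with few variants (-13.03, 0.169) and with PAE libraries 11 to 19 alone (-13.02, 0.196), and in females with PAE females 11 to 15 (-11.01, 0.112) or 26 to 29 (-10.49, 0.125) as the exposed group or without the 9 libraries (-9.47, 0.0680), where fewer libraries entered. Adjusted p ran from 7.52e-08 to 0.196 over 13 alternatives in males and from 1.40e-07 to 0.125 over 12 in females.

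Rhodospirillales variant C was called lower in PAE females than in control females, of which numbers 30 and 34 were as low as PAE females. It held 0.357% ± 0.338 in control females (SD, n = 7), with 0.258%, 0.326%, 0.406%, 0.529% and 0.980% in numbers 4, 8, 3, 9 and 10 but 0.00101% in 30 and 0.000276% in 34. PAE females held at most 0.0105%, with no read in 5 of 9 and 46 reads in all. In log2 terms the fold change was -8.24 (SE 2.60, edgeR adjusted p = 0.0294), and the ratio of mean shares was 181. The call was lost without control female 10 or 34 or any 1 of PAE females 26 to 29 (0.0504 to 0.0589). With controls 30 to 37 alone the log2 fold change turned to 1.02 (0.899), and over 14 alternatives adjusted p ran from 0.00129 to 0.899. In males variant C held 0.415% ± 0.655 in controls (SD, n = 11) and 0.174% ± 0.273 in PAE males (SD, n = 10), where the log2 fold change was -1.30 (SE 1.78, 0.811). There it occurred in control males 1, 2, 5, 6 and 7 (0.117% to 2.01%) and in none of numbers 31 to 37, and in PAE males it held 0.181% to 0.799% in numbers 16 to 19 and at most 0.00217% in 20 to 25. In subsets of libraries its male difference passed in both directions, at 12.63 with controls 30 to 37 alone (0.00884) and at -10.47 with PAE libraries 20 to 29 alone (0.0254). The difference between the sexes was 6.94 (SE 2.85, 0.222).

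The remaining Rhodospirillales variants did not pass edgeR's test over all libraries. Variant B held 0.0959% ± 0.133 in control males (SD, n = 11) and 1.01% ± 1.70 in PAE males (SD, n = 10, log2 fold change 3.87, edgeR adjusted p = 0.215), with no read in PAE males 16 to 19 and 5.07% in PAE male 20. Variant E held 0.0671% ± 0.118 and 0.0860% ± 0.115 in the same groups (0.966), and it had no read in any library numbered 20 to 37. In males variant E passed in opposite directions in the subsets, at 11.67 with controls 30 to 37 alone (0.0212) and at -11.21 with PAE libraries 20 to 29 alone (0.0300). Variant G reached 0.0856% and occurred in 8 of the 9 libraries with few variants and in 8 of the other 28. In males it passed with TMMwsp scaling (5.78, 0.0426) and with controls 30 to 37 alone (8.73, 0.0183). Variant F was named after its values were seen. It had 2345 reads in control males 35 to 37 and none in the other 34 libraries.

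Among all 16 variants tested, 4 passed in males, 1 higher and 3 lower. Over all 553 variants tested 12.1% were called in that comparison, 4.16% higher and 7.96% lower. In females 4 of 16 passed, all lower, where 12.3% of all variants were called, 3.98% higher and 8.32% lower. With another scaling the higher calls over all variants in males were 32 of 77 (TMMwsp) and 21 of 65 (library totals). With another tool they were 38 of 82 (DESeq2) and 52 of 95 (limma), against 23 of 67 in the main edgeR fit. In females they were 22 of 71 (TMMwsp), 23 of 68 (library totals), 28 of 63 (DESeq2) and 5 of 9 (limma), against 22 of 68. The median log2 fold change of the 16 was 0.48 in males and -0.32 in females, beside -0.71 and 0.26 for all 553. Parasutterella variants C and D and Rhodospirillales variant D, which make 3 of the 4 calls in each sex, passed the filter through control libraries alone, and the first 2 through controls 30 to 37. Their calls in both sexes are therefore not independent of the filter or of that block. No variant of the phylum passed edgeR's test of the difference between the sexes (0% of all variants called, and 0 members by DESeq2 and by limma). At an unadjusted p under 0.05 there were 4 of 16 members, beside 68 of all 553 variants. No variant passed edgeR's test between males and females within controls (0.904% of all called, 0 members by DESeq2 and by limma). Unadjusted, 4 of 16 members lay under 0.05 there, beside 52 of all 553. Within PAE no variant passed either (0% of all called, 1 member by DESeq2 and 0 by limma). Unadjusted, 1 of 16 lay under 0.05, beside 31 of all 553.

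At the genus rank, 0 of 11 passed in males by edgeR, where 11.6% of 112 genera were called. Over all genera 11 of 13 calls were higher in edgeR, 12 of 18 in DESeq2 and 15 of 30 in limma. At an unadjusted p under 0.05 there were 2 of 11, unclassified Rhodospirillales and Parasutterella, beside 31 of all 112 genera. DESeq2 called 0 of the 11 and limma 1. In females 1 of 11 passed, Sphingomonas, where 2.68% of all were called. There 1 of 3 calls over all genera was higher in edgeR, 2 of 4 with TMMwsp, 4 of 6 in DESeq2 and 1 of 1 in limma. The median log2 fold change of the 11 was 0.55 in males and 0.38 in females, beside -0.28 and -0.13 over all genera. For the difference between the sexes edgeR called 0 of 11 (3.57% of all, and 0 by DESeq2 and by limma). Unadjusted, 1 of 11 lay under 0.05, beside 12 of all 112. Within PAE, males and females differed in 0 of 11 (0% of all, and 0 by DESeq2 and by limma). Unadjusted, 0 of 11 lay under 0.05, beside 9 of all 112. Of 8 orders, 0 passed in males by edgeR (0% of 43 called, and 0 by DESeq2 and by limma). Unadjusted, 2 of 8 lay under 0.05, beside 6 of all 43. In females 1 passed, Sphingomonadales (4.65% of all called). Burkholderiales, which holds Parasutterella, had a log2 fold change of 2.17 in males (edgeR adjusted p = 0.244) and 0.14 in females (0.980).

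Escherichia-Shigella held a small share in every library and did not pass in either sex. It held 0.0169% ± 0.00904 in control males (SD, n = 11), 0.0178% ± 0.0112 in PAE males (SD, n = 10), 0.0171% ± 0.00492 in control females (SD, n = 7) and 0.0157% ± 0.00932 in PAE females (SD, n = 9). The lowest share was 0.00621% in PAE female 28 (95% Wilson interval 0.00498% to 0.00776%) and the highest 0.0429% in PAE male 24 (0.0319% to 0.0575%). The log2 fold change was 0.55 in males (SE 0.53, edgeR adjusted p = 0.530) and -0.41 in females (SE 0.61, 0.960). Its share spread 6.90-fold over libraries, against 220-fold for Parasutterella and 3146-fold for the unnamed Rhodospirillales. Its reads per library ran from 29 to 172 while depth ran over a 17.7-fold range, with 44 reads in the smallest library and 172 in the largest. Of its 2109 reads 2105 were variant A, and 4 further variants had 1 read each.

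**Figure D4:**
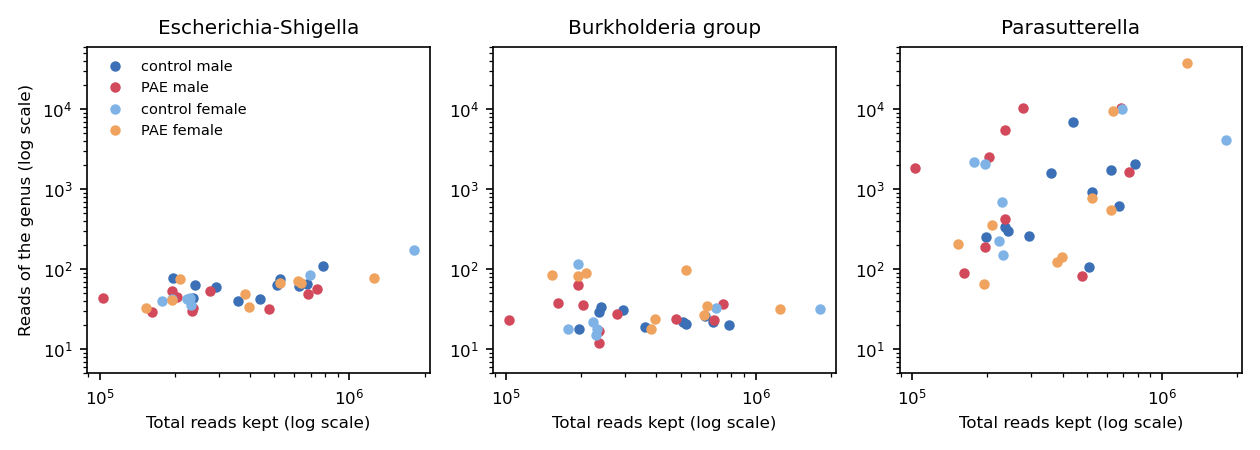
Reads of Escherichia-Shigella, Burkholderia-Caballeronia-Paraburkholderia and Parasutterella (y axis, log scale) are plotted against total reads kept (x axis, log scale), 1 point per library, by group. Escherichia-Shigella stays between 29 and 172 reads and Burkholderia-Caballeronia-Paraburkholderia between 12 and 117, with control male 31 at no read and not drawn, and Parasutterella runs from 65 to 38287.

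The other gut residents had few reads. Rodentibacter, a genus of Pasteurellaceae common in rodent airways, had 201 reads in 17 libraries and at most 0.0100%, in control male 31. Its log2 fold change was -0.28 in males (edgeR adjusted p = 0.874) and 1.75 in females (0.876). Unclassified Enterobacteriaceae had 153 reads in 3 libraries and did not pass the filter. In all, 5 genera counted as gut residents held 99 variants and 98.9% of member reads.

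The 14 reagent-type genera held 43 variants and 1974 reads, 0.613% of member reads. Their summed share was 0.0117% ± 0.00728 in control males (SD, n = 11), 0.0188% ± 0.0147 in PAE males (SD, n = 10), 0.0163% ± 0.0216 in control females (SD, n = 7) and 0.0254% ± 0.0219 in PAE females (SD, n = 9). Burkholderia-Caballeronia-Paraburkholderia, a group of soil and water bacteria, had 1291 of these reads in 36 libraries. Its highest shares were 0.0600% in control female 10 and 0.0563%, 0.0431% and 0.0421% in PAE females 11, 14 and 12, so both exposure groups held high values. Its log2 fold change was 1.40 in males (SE 0.76, edgeR adjusted p = 0.231) and -0.14 in females (SE 0.86, 0.970). It was the genus called by limma in males (1.96, 0.0306).

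Sphingomonas, a genus of water and surfaces, was higher in PAE females than in control females. It had 0 reads in all 7 control females, and 4 to 13 reads in 8 of 9 PAE females (64 reads in all, 0.00238% ± 0.00183, SD, n = 9). The log2 fold change was 6.17 (SE 1.61, edgeR adjusted p = 0.0203), and the share was at least 28.3-fold higher against 3 reads over the control females. It was also higher in control males than in control females (5.73, SE 1.56, 0.0236, at least 20.2-fold), with 4.46% of all genera called in that comparison. Control males held 0 to 17 reads, in 7 of 11 libraries, and PAE males 0 to 13, in 6 of 10. PAE males and control males differed by 1.01 (SE 1.09, 0.568), and the difference between the sexes in the effect of exposure was -5.16 (SE 1.68, 0.0973). The female call was lost without control female 34 (6.14, 0.0745), the library of greatest depth, and the control call without control female 3, 8, 10 or 34 (up to 0.0730). Adjusted p over 13 alternatives ran from 0.0108 to 0.345 for the first and from 0.0125 to 0.945 for the second. The order Sphingomonadales passed in females (3.99, SE 1.22, 0.0495), and that call was lost in 30 of 37 fits that left out 1 library (up to 0.213). It was kept under 2 of 14 other alternatives, limma (0.0339) and controls 1 to 10 alone (0.0473), and lost by DESeq2 (0.0823), with adjusted p of up to 0.618. Aquabacterium, with 127 reads, had log2 fold changes of -0.25 in males (0.874) and 0.38 in females (0.960). Massilia and Pseudomonas, the other tested reagent-type genera, had 117 and 98 reads and edgeR adjusted p of 0.241 and 0.913 in males.

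The other 69 genera were neither on the gut list nor on the reagent list and held 1623 reads, 0.504% of member reads. Nitrosomonas, a genus of ammonia oxidisers, had 373 of these reads. Its variant A occurred in all 9 libraries with few variants, at 0.00148% to 0.0191%, and in 3 of the other 28, at up to 0.00161%. The genus did not pass in males (log2 fold change 2.48, SE 1.60, edgeR adjusted p = 0.322) or in females (0.46, SE 1.78, 0.960). It passed in males with controls 30 to 37 alone (6.99, 0.0437). Nitrosomonas variant A did not pass in edgeR in males (4.88, SE 1.78, 0.0684), and it passed there with TMMwsp scaling (6.40, 0.0168), with DESeq2 (6.40, 0.0294), with controls 30 to 37 alone (6.94, 0.0205) and with PAE libraries 20 to 29 alone (5.03, 0.0300). Hirschia, with 50 reads, had an edgeR adjusted p of 0.897 in males.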

How the data were processed

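The table the authors deposited holds raw counts, whole 16S reads for each sequence variant in each library, without normalization, beside a taxonomy for all but 2 rows. The notes of the submitters on processing list cutadapt, Bowtie2 and GRCm39 without roles. No denoiser or classifier is named in the labels or the file headers. Rows without taxonomy, unassigned, eukaryotic or of plastids or mitochondria were removed, leaving 6085 of 6100 rows and 99.99% of 16140229 reads. Reads were added up by phylum, order and genus, with unnamed rows under their lowest named rank. A taxon was tested if 7 or more libraries held 5 or more reads of it (15 phyla, 43 orders, 112 genera, 553 variants). The test was edgeR 4.0.16 (R 4.3.3) with TMM scaling, quasi-likelihood fits of 4 group means, Benjamini-Hochberg adjustment over all taxa of the rank and calls at adjusted p under 0.05. This procedure was run on simulated counts in which no variant was missing from whole runs of libraries. That run therefore does not bear on variants that were missing in this way. Shares are percent of reads kept. Permutation tests on shares were two-sided, and exact where a group had fewer than 10 libraries (otherwise 100000 permutations). A fold against a group at 0 uses 3 reads over that group. The SE given with an edgeR log2 fold change is its absolute value divided by the square root of the F statistic. It is not a standard error estimated by the fit.

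Other settings tried were TMMwsp, total reads in place of TMM, DESeq2 1.42.0, limma 3.58.1 (centred log-ratios after adding 0.5), looser and stricter filters, all rows, depth as a covariate, subsets of libraries and leaving out each library. Leaving out the 9 libraries with few variants was added after seeing the data. The members, the lists of gut residents and reagent-type genera, and the tests were chosen with earlier results of these data known. The text names orders and genera that passed the filter, the 3 reagent-type genera of most reads, up to 5 variants by mean share in each main genus, and every called variant. In 2 control male libraries, title and description exchange names, and numbers 5 and 6 follow the column names.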

Additional observations from a re-analysis of the deposited data

Results flagged for a closer look

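Parasutterella in PAE female 28 stood apart from the other PAE females. It held 3.05% of reads there (38287 reads, 95% Wilson interval 3.02% to 3.08%), against 1.51% in PAE female 27, the next highest, and 0.171% or less in the other 7. The gap to the next library was 0.512 of the group's range, above the 95% limit of Dixon's test for 9 values. It was the single value flagged among 12 groups tested. The limit would flag about 1 in 20 groups by chance if values were independent and normally spread. These shares were skewed and the phylum's share contains that of Parasutterella, so the rate of chance flags is not known here. The control males were not among the groups tested. Parasutterella in control male 31, at 1.56%, also stood above the other control males, and whether it was an outlier was not tested.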

How the results depend on the processing

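The number of libraries with high shares and the rarity of many variants limit these results, and a sign change between fits that both missed the threshold was counted as no change. No paired analysis was possible because each label number belongs to 1 library and the groups share none. For the phylum in males, the log2 fold change passed with no filter (2.12), at least 10 reads in 18 libraries (1.71), depth as a covariate (1.80) and PAE libraries 20 to 29 alone (2.17), and ran from 1.40 to 1.77 when single libraries were left out, passing without PAE male 25 (0.0368). In females it passed with PAE libraries 11 to 19 alone (-2.04) and, by a choice of libraries that also removes the highest shares, without the 9 libraries with few variants (-1.60), and ran from -1.50 to 0.06 without single libraries. Without single libraries the difference between the sexes ran from 1.60 to 2.995, that within controls from -0.61 to -0.14 and that within PAE from 1.17 to 2.53.

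Of the genera called in males (0), limma, depth as a covariate, controls 30 to 37 alone and the male groups alone gave 1, no filter 33 and leaving out single libraries 0 to 2. In females (1), limma, the stricter filter, controls 1 to 10 or 30 to 37 alone, PAE libraries 20 to 29 alone, the fit without the 9 libraries and the female groups alone gave 0, and single libraries 0 to 1. For the difference between the sexes no filter gave 8. Between the sexes within controls (1), no filter gave 3 and limma, the stricter filter, both control subsets, the fit without the 9 libraries and the control groups alone gave 0, with 0 to 1 over single libraries. Within PAE no filter gave 3. Without the filter up to 88 genera of the phylum entered in place of 11, so its counts cannot be set beside the others. Calls over all genera were given above for other scalings and tools only. Counts in the remaining settings describe the members alone.

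Of the variants called in males (4), TMMwsp and DESeq2 gave 7, no filter 24, controls 30 to 37 alone and PAE libraries 20 to 29 alone 8, controls 1 to 10 alone and the male groups alone 1, and the stricter filter, PAE libraries 11 to 19 alone and the fits without PAE libraries 20 to 24 or the 9 libraries 0, with 3 to 4 over single libraries. In females (4), limma, depth as a covariate and either control subset gave 2, the female groups alone 1, and the stricter filter, either PAE subset and the fit without the 9 libraries 0, with 1 to 4 over single libraries. Within PAE DESeq2 gave 1 (0 in edgeR). Without the filter up to 273 variants of the phylum entered in place of 16, so its count cannot be set beside the others. Calls over all variants were given above for other scalings and tools only. Counts in the remaining settings describe the members alone. Rhodospirillales variant C in females turned from -8.24 to 1.02 with controls 30 to 37 alone, where 2 control females remained. The cause of the other changes was not tested, apart from the smaller number of libraries or taxa in subsets and filters. Median log2 fold changes of all variants in males were -0.71, -0.89 with TMMwsp, -0.84 with library totals, -0.66 with DESeq2 and -0.33 with limma.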
